A study of Mus musculus with 8 samples.

Results

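Fibrillar collagen is made as a procollagen chain that has to be modified, folded, trimmed and crosslinked before it becomes a fibre, and the genes described here encode the enzymes and helpers of those steps. The 10 genes were chosen by name: the 5 lysyl oxidases *Lox*, *Loxl1*, *Loxl2*, *Loxl3* and *Loxl4*, and 5 procollagen processing genes, *P4ha1*, *Plod1*, *Plod2*, *Serpinh1* and *Pcolce*. They are 10 of the 46078 genes counted, and 9 of them were among the 14736 genes abundant enough to test. *Loxl4* was too low.

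Messenger RNA was sequenced from brain infarcts of 8 C57BL/6J wild-type mice aged 18 months, a common inbred strain. Every animal had DH stroke, meaning closure of the distal middle cerebral artery followed by a period of low oxygen. From 1 week after surgery the animals were injected under the skin 3 times per week for 6 weeks, 4 of them with phosphate-buffered saline (vehicle) and 4 with 2-hydroxypropyl-β-cyclodextrin at 4 g/kg (HPβCD), a cyclic sugar that binds lipids. Infarcts were recognised by eye and cut out by hand at 7 weeks, 1 library per animal. All samples share the stroke, the age and the injection schedule, and the comparison holds no group of uninjured tissue. The question addressed is which transcripts of the chronic infarct differ after repeated HPβCD.

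As background, prolyl 4-hydroxylase and the lysyl hydroxylases add hydroxyl groups to procollagen in the endoplasmic reticulum, where the chaperone HSP47 holds the folded triple helix. After secretion, propeptides are cut off by proteases such as BMP1, and lysyl oxidases then oxidise lysine side chains so that neighbouring collagen or elastin molecules join covalently. In injured brain the sources of these proteins include fibroblasts and cells of the vessel wall, which build the scar. A piece of tissue with fewer cells of a type cannot be told apart from one whose cells hold less of that RNA.

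The libraries held between 16616909 and 32933164 counts assigned to genes. Vehicle animals 1 and 3 stood apart from the rest by their neuron transcripts. The summed level of 10 neuron markers was 1482 CPM (read counts scaled to a common library size) in vehicle 1 and 8947 in vehicle 3. It was 98.9 and 65.0 in vehicle 2 and 4 and 47.3 to 244 in the HPβCD libraries. Vehicle 1 and 3 were also lowest in summed fibroblast markers, with 2228 and 1873 CPM against 4008 and 3552 in the other vehicle libraries. Glial markers were mixed. Summed astrocyte markers were highest in vehicle 1 and 3, at 7593 and 9863 CPM. Summed oligodendrocyte markers were highest in vehicle 1, at 5253 CPM, but vehicle 3, at 1661 CPM, was the lowest vehicle library. For the members' differences, the ratios to other genes and the gene lists, values without vehicle 1 and 3 are therefore also given.

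Promoters are shown for *Plod1* and *Pcolce*, which passed the test described below, and for *P4ha1*, whose groups separated by a smaller amount. Each window runs from 250 bases before to 50 bases after the RefSeq transcription start on GRCm38.p6, written 5′ to 3′ on the strand of the gene, and that of *Pcolce* lies inside the outermost GENCODE gene model. Capitals mark every GC box, the letters GGGCGG on either strand.
Plod1, chr4:147936727-147937026, minus strand: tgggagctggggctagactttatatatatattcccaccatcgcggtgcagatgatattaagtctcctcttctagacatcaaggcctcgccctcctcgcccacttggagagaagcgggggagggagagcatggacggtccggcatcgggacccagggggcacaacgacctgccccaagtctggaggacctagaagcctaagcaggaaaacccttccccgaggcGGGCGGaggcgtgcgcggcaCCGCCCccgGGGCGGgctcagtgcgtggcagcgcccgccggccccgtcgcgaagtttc
Pcolce, chr5:137611355-137611654, minus strand: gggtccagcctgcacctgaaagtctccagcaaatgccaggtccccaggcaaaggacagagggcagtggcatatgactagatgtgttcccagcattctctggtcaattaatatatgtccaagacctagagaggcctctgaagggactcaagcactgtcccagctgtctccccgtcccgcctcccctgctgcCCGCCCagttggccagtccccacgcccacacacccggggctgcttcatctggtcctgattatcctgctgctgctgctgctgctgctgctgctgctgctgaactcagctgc
P4ha1, chr10:59323046-59323345, plus strand: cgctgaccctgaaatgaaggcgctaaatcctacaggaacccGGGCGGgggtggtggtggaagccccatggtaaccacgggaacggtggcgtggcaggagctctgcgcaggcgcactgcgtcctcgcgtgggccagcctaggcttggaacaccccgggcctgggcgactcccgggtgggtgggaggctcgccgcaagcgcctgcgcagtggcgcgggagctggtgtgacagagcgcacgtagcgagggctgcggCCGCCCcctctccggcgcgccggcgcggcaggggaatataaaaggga

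RefSeq promoters were matched for 5 members, these 3 plus *Serpinh1* and *Loxl4*. A GC box was found in 5 of 5, against 35.7% of 32851 promoters of the same length, with 3 copies each in *Plod1* and *Loxl4*, 2 in *P4ha1* and 1 each in *Pcolce* and *Serpinh1*. The hypoxia response core was searched as ACGTG and GCGTG on both strands, because *Lox*, *P4ha1* and the lysyl hydroxylases are known hypoxia-inducible genes. ACGTG was found in *Serpinh1* and *P4ha1* (19.6% of all promoters) and GCGTG in *Plod1*, *Pcolce*, *P4ha1* and *Loxl4* (32.4%), and 0 of these matches overlapped a GC box. The letters TATAAA occurred in *Plod1* and *P4ha1* (13.6% of all promoters), CCAAT in 0 of 5 (37.4%) and GAANNTTC, a heat shock element core, in *Plod1* alone of the 5 (7.86%). These are matches of letters in a window and say nothing of binding in the infarct.

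In aged infarcts, 3 of the 9 tested genes were higher after HPβCD than after vehicle and 0 were lower: *Loxl1* by 2.501-fold, *Pcolce* by 2.37-fold and *Plod1* by 2.16-fold, each with adjusted p = 0.0427 (edgeR quasi-likelihood, Benjamini-Hochberg over all genes tested). The share of all tested genes called higher was 1.17%. The other 6 had a mean higher with HPβCD by 1.43-fold (*P4ha1*) to 1.96-fold (*Serpinh1*) and did not pass. Before adjustment, 6 of 9 had p under 0.05 in the higher direction (background 11.8%), and in the same 6 every HPβCD library lay above every vehicle library (background 8.77%). The members' median log2 fold change was 0.67, beside -0.045 over all tested genes. *Lox* itself, the founding member of the family, was not among the 6.

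**Figure D1:**
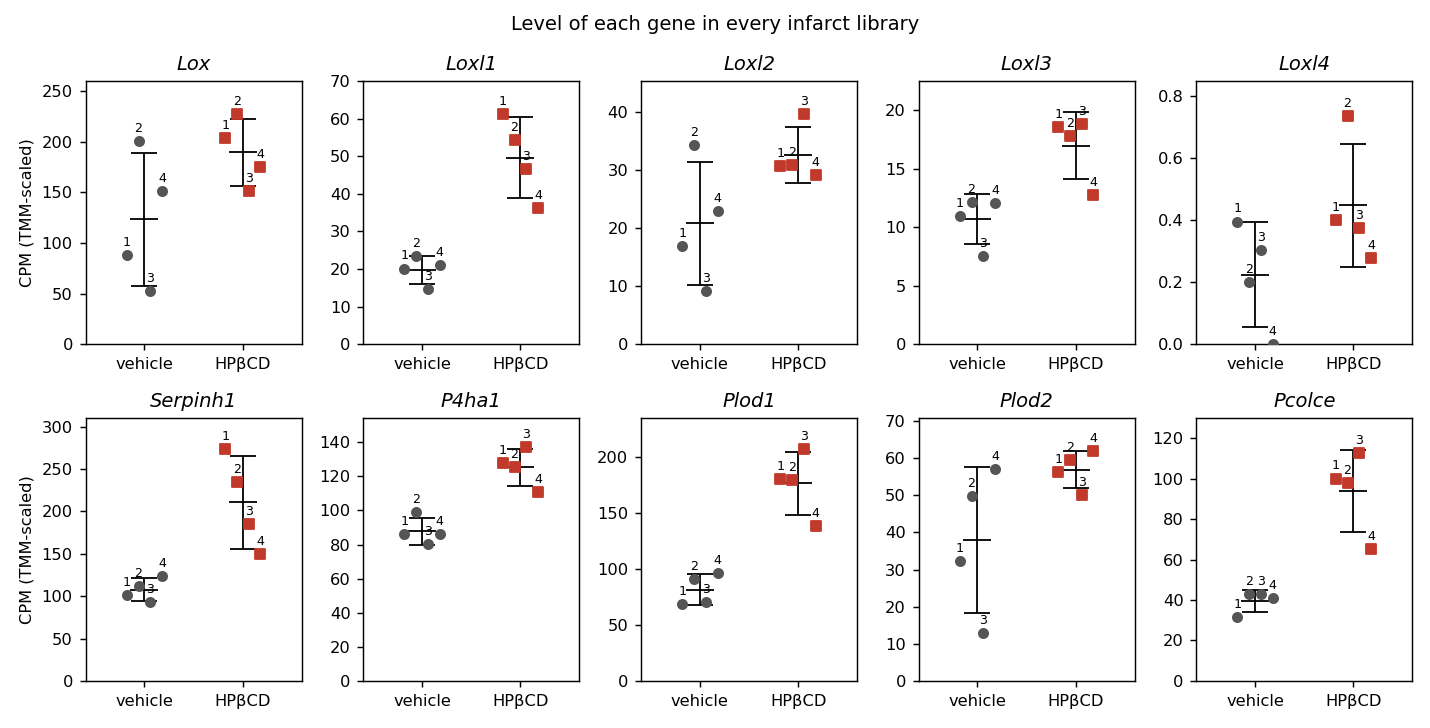
Level of each of the 10 genes in CPM (vertical axes, each from 0) in the 4 vehicle (grey) and 4 HPβCD (red) libraries, numbered by animal, with bars for mean ± SD. The groups do not overlap for *Loxl1*, *Loxl3*, *Serpinh1*, *P4ha1*, *Plod1* and *Pcolce*, and vehicle 3 is the lowest vehicle library in 7 of the 9 tested genes.

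Of the procollagen hydroxylases, *Plod1* encodes lysyl hydroxylase 1, which prepares helical lysines for crosslinking (ENSMUSG00000019055, chr4:147909753-147936767, minus strand). Its level was 68.9, 90.5, 70.2 and 96.4 CPM in the vehicle animals and 180.4, 179, 206 and 138 CPM in the HPβCD animals. All HPβCD values were above all vehicle values, and the lowest was in HPβCD 4. The means were 81.5 ± 14.0 and 176 ± 28.1 CPM (SD, n = 4 per group), and the log2 fold change was 1.11 (SE 0.18).

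*Plod2* encodes lysyl hydroxylase 2, the form that hydroxylates the telopeptide lysines of collagen and is known from fibrosis (ENSMUSG00000032374, chr9:92542223-92608428, plus strand). It was measured at 32.4, 49.8, 12.8 and 57.0 CPM with vehicle and at 56.2, 59.4, 50.2 and 61.9 CPM with HPβCD. The groups overlapped, since vehicle 4 was above HPβCD 1 and 3, and the vehicle spread was set by the low vehicle 3. The log2 fold change of 0.58 (SE 0.39) did not pass, with an adjusted p of 0.367 in edgeR.

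*P4ha1* encodes the main catalytic subunit of prolyl 4-hydroxylase, whose product makes the triple helix stable at body temperature (ENSMUSG00000019916, chr10:59323296-59373304, plus strand). Vehicle libraries held 86.1, 98.8, 80.1 and 86.0 CPM and HPβCD libraries 128, 125, 137 and 111 CPM. The groups did not overlap and the spread within each was narrow, with means of 87.8 ± 7.90 and 125 ± 10.9 CPM. Its log2 fold change of 0.51 (SE 0.12) was the smallest of the 9 and missed the threshold, with an adjusted p of 0.0627 in edgeR.

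*Serpinh1* encodes HSP47, the chaperone specific to collagen (ENSMUSG00000070436, chr7:99345376-99353239, minus strand). It was at 102, 112, 92.6 and 124 CPM with vehicle and at 273, 234, 185 and 149.5 CPM with HPβCD. All HPβCD values exceeded all vehicle values. The log2 fold change was 0.97 (SE 0.20) and the adjusted p of 0.0506 in edgeR lay just outside the threshold of 0.05.

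*Pcolce* encodes the procollagen C-endopeptidase enhancer, a secreted protein that speeds removal of the carboxyl propeptide by BMP1 (ENSMUSG00000029718, chr5:137605103-137613784, minus strand). Vehicle animals gave 31.8, 43.0, 42.8 and 40.8 CPM, and HPβCD animals gave 100.05, 97.8, 113 and 65.2 CPM. Every HPβCD library was above the highest vehicle library, HPβCD 4 by the least. The means were 39.6 ± 5.29 and 93.9 ± 20.2 CPM and the log2 fold change was 1.25 (SE 0.19). *Pcolce* shares 2.93% of its exon bases with *Fbxo24* on the same strand, and reads there cannot be assigned to either gene with certainty.

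Among the lysyl oxidases, *Loxl1* is best known for crosslinking elastin (ENSMUSG00000032334, chr9:58287738-58313186, minus strand). Its values were 20.15, 23.5, 14.7 and 21.0 CPM with vehicle and 61.3, 54.4, 46.7 and 36.3 CPM with HPβCD. The groups did not overlap, and the lowest HPβCD library, number 4, was still above the highest vehicle library. Means were 19.9 ± 3.74 and 49.7 ± 10.7 CPM, and the log2 fold change of 1.32 (SE 0.21) was the largest of the 9 members. Over all tested genes, 0.502% had a larger one.

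*Lox* encodes lysyl oxidase, which acts on collagen and elastin alike (ENSMUSG00000024529, chr18:52516067-52529867, minus strand). It was at 87.8, 201, 52.8 and 151 CPM with vehicle and at 204, 227.5, 151 and 175 CPM with HPβCD. The groups overlapped: vehicle 2 lay above HPβCD 3 and 4, while vehicle 1 and 3 lay below every HPβCD library. The log2 fold change of 0.62 (SE 0.37) did not pass in edgeR, with an adjusted p of 0.317.

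*Loxl2* acts on basement membrane collagen and also has functions inside the nucleus (ENSMUSG00000034205, chr14:69609068-69695834, plus strand). Vehicle values were 16.9, 34.4, 9.18 and 23.0 CPM and HPβCD values 30.8, 30.9, 39.7 and 29.1 CPM. Vehicle 2 was higher than 3 of the 4 HPβCD libraries, and the log2 fold change of 0.64 (SE 0.35) did not pass, with an adjusted p of 0.265 in edgeR. *Loxl3*, a relative of *Loxl2* (ENSMUSG00000000693, chr6:83034173-83052562, plus strand), was lower in both groups, at 10.95, 12.1, 7.55 and 12.1 CPM with vehicle and 18.6, 17.8, 18.8 and 12.7 CPM with HPβCD. Its groups did not overlap, but HPβCD 4 was barely above the highest vehicle library. Its log2 fold change was 0.67 (SE 0.21), with an adjusted p of 0.0896 in edgeR. On the opposite strand *Htra2* covers 11.6% of the exon bases of *Loxl3*, and the strand setting of the counting was not given in the sources used here.

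*Loxl4* was close to absent (ENSMUSG00000025185, chr19:42593982-42612813, minus strand). It received 7, 7, 5 and 0 reads in the vehicle libraries and 7, 12, 7 and 5 in the HPβCD libraries. The 0 in vehicle 4 allows a level of up to 0.161 CPM at 3 counts, counting error only. With values this low no difference was detectable, and the gene was not tested in the main edgeR fit. DESeq2 and edgeR with no filter on low counts included it and did not call it.

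**Figure D2:**
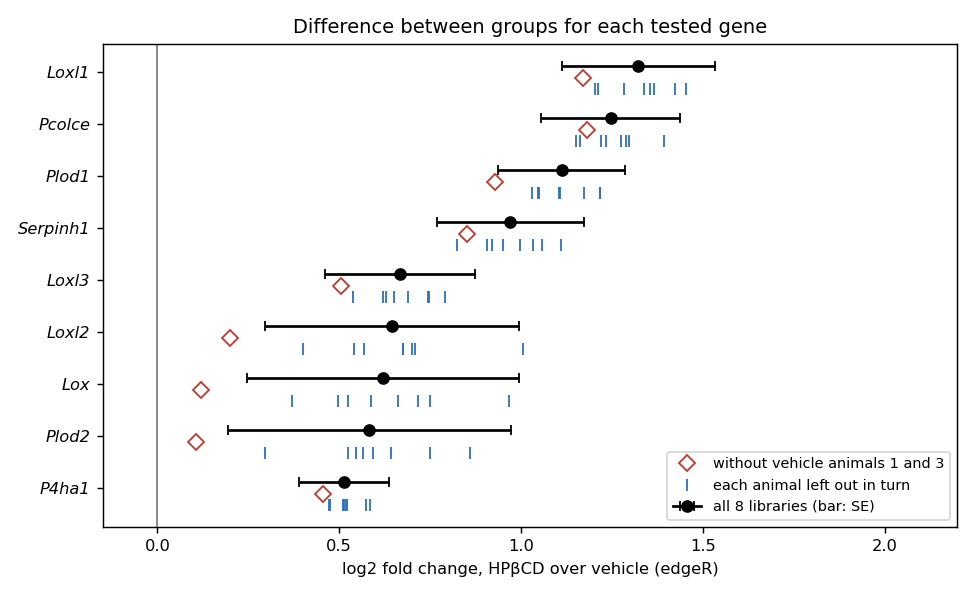
Log2 fold change of each tested gene, HPβCD over vehicle, from edgeR (horizontal axis), with black points and SE bars for all 8 libraries, blue ticks for the fits that leave out each animal in turn, and open diamonds for the fit without vehicle 1 and 3. All estimates are above 0, but the diamonds of *Lox*, *Loxl2* and *Plod2* lie at 0.12, 0.20 and 0.11.

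Leaving out vehicle 1 and 3 together separated the members into those whose difference held its size and those whose difference did not. Only vehicle 2 and 4 remained in that fit. For every tested member but *Pcolce* and *P4ha1*, vehicle 1 and 3 lay below vehicle 2 and 4, so a smaller difference there follows from the choice itself. Without vehicle 1 and 3, *Loxl1*, *Pcolce* and *Plod1* kept log2 fold changes of 1.17, 1.18 and 0.93. These members were still called, with adjusted p of 0.0425, 0.0419 and 0.0452 in edgeR. Of all 15066 genes tested in that fit, 73 were called higher and 129 lower. *Lox*, *Loxl2* and *Plod2* dropped to 0.12, 0.20 and 0.11. *Serpinh1*, *Loxl3* and *P4ha1* stayed between 0.45 (*P4ha1*) and 0.85 (*Serpinh1*) and were not called. The 3 calls did not withstand every other choice of libraries: they were lost when vehicle 1, vehicle 4, HPβCD 1, HPβCD 2 or HPβCD 3 was left out, where edgeR called at most 4 genes of all tested, and they were kept without vehicle 2, vehicle 3 or HPβCD 4. DESeq2, a second count model, called 6 members higher, the 3 above plus *Serpinh1*, *P4ha1* and *Loxl3*, at a background of 5.92% of genes called higher.

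Within the vehicle group the members varied together by animal. Vehicle 3 was the lowest vehicle library for 7 of the 9 genes and vehicle 1 for the other 2, *Pcolce* and *Plod1*. Vehicle 2 was the highest for 6. In the HPβCD group, animal 4 was lowest for 7 of 9, all but *Lox* and *Plod2*, and animal 3 was highest for 5. Relative to the mean of each gene over the 8 libraries, vehicle 3 fell to -1.75 on the log2 scale for *Plod2*, -1.43 for *Lox* and -1.41 for *Loxl2*, but to only -0.38 for *P4ha1* and -0.49 for *Pcolce*.

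**Figure D3:**
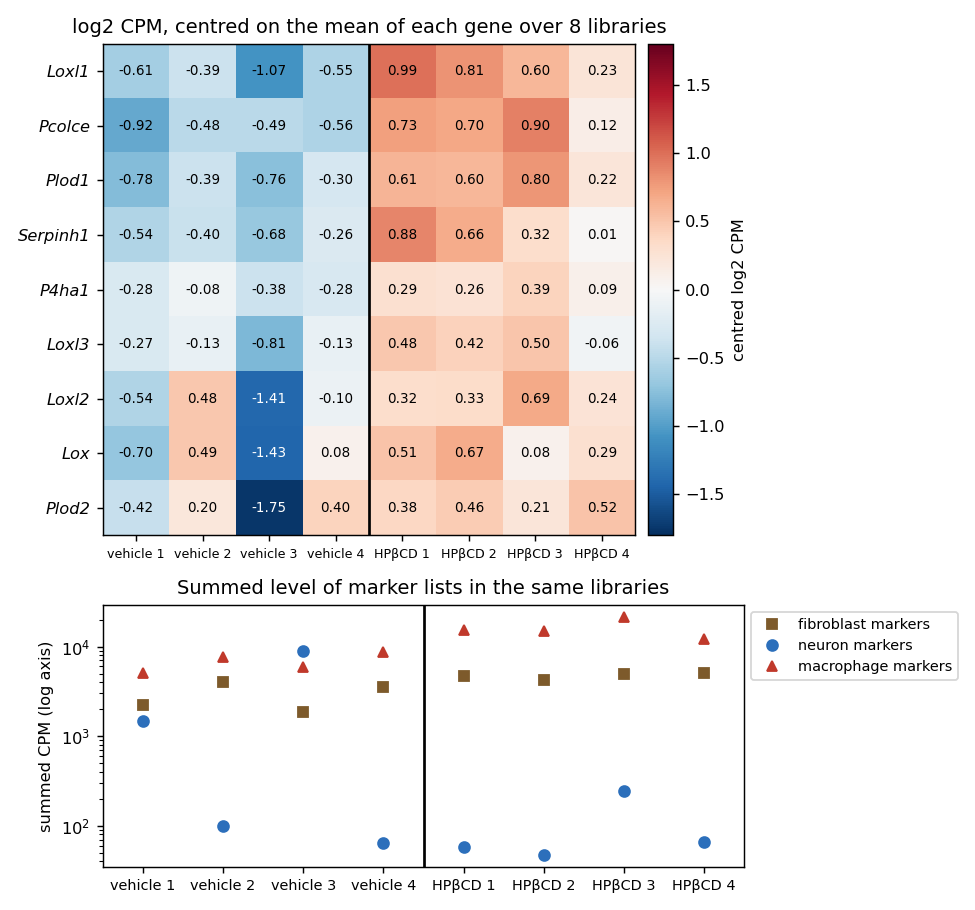
Top, log2 CPM of each tested gene minus its mean over the 8 libraries (colour and printed value), by library. Bottom, summed CPM of the fibroblast, neuron and macrophage marker lists in the same libraries on a log axis, with vehicle 1 and 3 highest in neuron markers and lowest in fibroblast markers.

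For comparison between genes, levels were scaled by exon length as CPM divided by the kilobases of merged exon (RPKM). With vehicle the order of the levels was *Serpinh1* (44.0 ± 5.48 RPKM), *Lox* (25.8 ± 13.8), *P4ha1* (21.3 ± 1.92), *Plod1* (12.04 ± 2.07), *Pcolce* (10.4 ± 1.38), *Plod2* (7.05 ± 3.66), *Loxl1* (6.02 ± 1.13), *Loxl2* (3.86 ± 1.97), *Loxl3* (2.32 ± 0.467) and *Loxl4* (0.0533 ± 0.0402). Of the neighbours in that order, the vehicle ranges separated only between *P4ha1* and *Plod1* and between *Loxl3* and *Loxl4*. With HPβCD the order was the same except that *Loxl1* (15.1 ± 3.26 RPKM) stood above *Plod2* (10.6 ± 0.937), although their ranges overlapped. *Serpinh1* led again, at 86.2 ± 22.3 RPKM, and its range was above that of *Lox* (39.6 ± 6.96 RPKM). Ranges also separated between *Plod2* and *Loxl2*, between *Loxl2* and *Loxl3* and between *Loxl3* and *Loxl4*.

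The makeup of each enzyme family was compared as a share of the family's counts per kilobase, which does not depend on scaling between libraries. *Plod1* made up 36.2%, 37.7%, 42.7% and 38.1% of the lysyl hydroxylase sum in the vehicle animals and 43.8%, 44.4%, 45.7% and 43.6% in the HPβCD animals. The groups did not overlap, and the difference of 5.69 percentage points had p = 0.0286 in an exact two-sided permutation test, the smallest that 4 against 4 animals allows. Adjusted over the 11 shares tested it was 0.210, and raw counts in place of counts per kilobase gave p = 0.0571 in the same exact test. *Plod2* took 21.4% ± 8.23 of the sum with vehicle and 18.5% ± 4.42 with HPβCD, exact permutation p = 0.543.

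*P4ha1* made up 79.0% ± 7.77 of the prolyl 4-hydroxylase alpha subunits with vehicle and 90.0% ± 2.39 with HPβCD (SD, n = 4 each, exact permutation p = 0.0571), and raw counts in place of counts per kilobase gave p = 0.0286 in the same exact test. *P4ha3*, another alpha subunit, made up 18.0% ± 8.73 and 6.39% ± 3.01 (exact permutation p = 0.0571). In both shares the groups overlapped only between vehicle 3, at 86.9% and 8.34%, and HPβCD 3, at 86.8% and 10.1%. In the lysyl oxidase family *Lox* gave most of the counts per kilobase in every library, 65.6% ± 6.804 with vehicle and 61.3% ± 4.74 with HPβCD (exact permutation p = 0.343). *Loxl1* took 17.6% ± 5.24 and 23.2% ± 2.85 (exact permutation p = 0.143), and the shares of *Loxl2*, *Loxl3* and *Loxl4* overlapped between the groups.

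**Figure D4:**
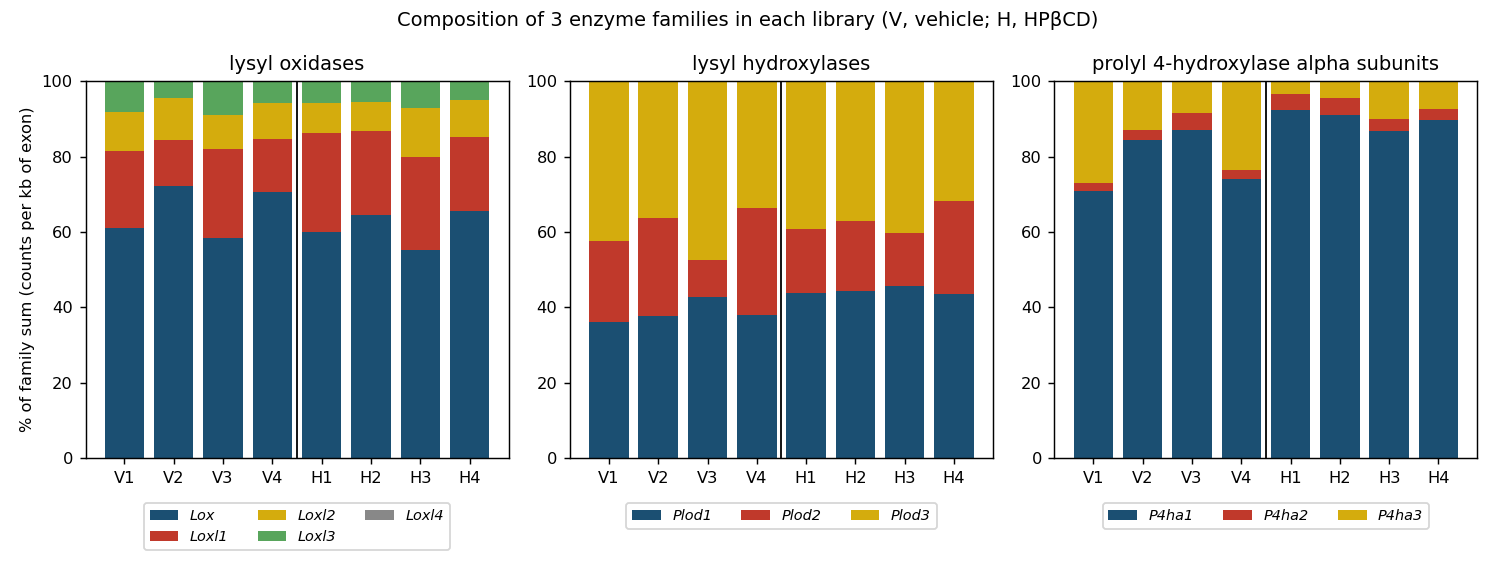
Composition of the lysyl oxidases, lysyl hydroxylases and prolyl 4-hydroxylase alpha subunits in each library, as percent of the family's counts per kilobase of exon (vertical axis from 0 to 100). The *Plod1* share is 36.2% to 42.7% in the vehicle libraries and 43.6% to 45.7% in the HPβCD libraries.

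The collagen substrates of these enzymes were also compared. *Col1a1* and *Col1a2*, the chains of type I collagen, were called higher, from 313 ± 102 to 958 ± 198 CPM and from 920 ± 245 to 2527 ± 435 CPM, with log2 fold changes of 1.61 and 1.46 and adjusted p of 0.0483 and 0.0462 in edgeR. *Col3a1*, the chain of type III collagen, had a log2 fold change of 1.01 and an adjusted p of 0.201. Set against the geometric mean of these 3 collagens within each library, all 9 members had a lower mean ratio with HPβCD, from -0.17 on the log2 scale for *Loxl1* to -0.96 for *P4ha1*. In 5 members, *Lox*, *Loxl2*, *Loxl3*, *Plod2* and *P4ha1*, every HPβCD ratio was below every vehicle ratio. The background is high, at 84.4% of 14733 genes, since the reference itself rose by 1.48, and the members' median difference of -0.69 compares with -1.51 over all genes. Without vehicle 1 and 3, the same 5 members lay below, but only 7 of 9 mean ratios were lower, and the median difference was -0.52. The share of all genes lying below is not given for that setting, where only vehicle 2 and 4 remained.

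Set instead against the fibroblast genes *Dcn*, *Lum* and *Pdgfra*, whose geometric mean was higher by 0.78 with HPβCD, the ratios of all 9 members overlapped between the groups. The share of all genes that overlapped against this reference is not given here. The mean differences in log2 ratio were 0.53 for *Loxl1*, 0.44 for *Pcolce*, 0.33 for *Plod1* and 0.16 for *Serpinh1*. For *Lox*, *Loxl2* and *Plod2* they were -0.0053, 0.0040 and -0.0020, and for *Loxl3* and *P4ha1* they were -0.11 and -0.27. The median over members was 0.0040, beside -0.81 over all genes. Without vehicle 1 and 3 the median was 0.19, and the ratios of 3 members, *Loxl1*, *Pcolce* and *Plod1*, lay above vehicle without overlap. Groups separate more easily with only vehicle 2 and 4 left, and the share of all genes that did so is not given here.

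**Figure D5:**
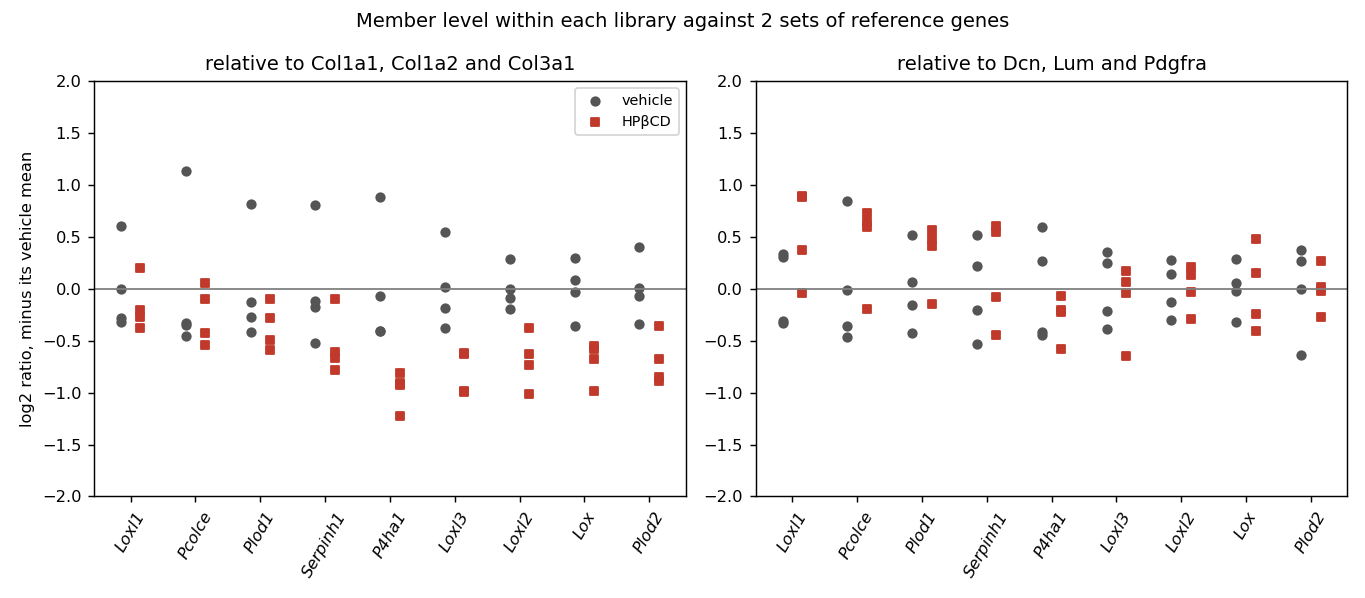
Log2 ratio of each tested gene to the geometric mean of 3 collagens (left) or 3 fibroblast genes (right) in the same library, minus the vehicle mean of that ratio, with vehicle in grey and HPβCD in red. Against the collagens 5 genes separate downward, where 84.4% of all genes do. Against the fibroblast genes all 9 overlap, and the share over all genes is not given.

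Of 25 other genes of collagen maturation, 24 were tested, 1 was called higher and 0 lower, and the median log2 fold change was 0.63. The share of all tested genes called higher was 1.17%, as above. In edgeR 14 had an unadjusted p under 0.05 in the higher direction and 3 in the lower. Of all 14736 tested genes, 4092 had such a p, 1741 of them in the higher direction. The gene called was *P3h3*, which belongs to the prolyl 3-hydroxylase family, at 15.6 ± 3.18 and 30.9 ± 5.24 CPM (log2 fold change 0.99, adjusted p 0.0483 in edgeR). *P4hb*, the beta subunit that pairs with *P4ha1*, was at 758 ± 215 and 1253 ± 151 CPM, a log2 fold change of 0.73 with an adjusted p of 0.0948. *Bmp1* and *Tll1*, proteases of the carboxyl propeptide whose activity *Pcolce* enhances, had log2 fold changes of 0.80 and 1.496, both with an adjusted p of 0.0624, and *Adamts2*, the protease of the amino propeptide, had 1.02 with an adjusted p of 0.0555. *Crtap* and *Colgalt1*, of the prolyl 3-hydroxylation complex and of collagen glycosylation, had 0.86 and 0.62, and neither passed. The collagen folding and secretion list had 0 of 7 called, with a median of 0.42, and its most abundant genes *Ppib*, *Mia3* and *Sec23a* had log2 fold changes of 0.42, 0.03 and -0.01. Without vehicle 1 and 3 the median of the 24 genes was 0.46, *P3h3* was no longer called and *Tll1* was the 1 gene called.

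Elastic fibre genes encode the other substrate and scaffold of the lysyl oxidases. Among them 2 of 13 were called higher and 0 lower, where 1.17% of all tested genes were called higher. Their median log2 fold change was 1.07, with 12 of 13 above 0. *Mfap2*, a microfibril protein, was at 1.77 ± 0.186 and 6.05 ± 1.64 CPM (log2 fold change 1.76, adjusted p 0.0405 in edgeR), and *Efemp2*, encoding fibulin 4, which brings lysyl oxidase to elastin, was at 25.6 ± 1.24 and 43.5 ± 6.76 CPM (0.77, adjusted p 0.0483). *Fbln1*, *Emilin1* and *Efemp1* had log2 fold changes of 1.21, 1.07 and 0.53 and did not pass. Of the 11 fibrillar collagen chains listed, 9 were tested and 2 called, the type I chains above. Among genes induced by hypoxia, a regulator known for *Lox*, *P4ha1* and *Plod2*, 0 of 11 tested were called, with a median of -0.06 and values of -0.07 for *Slc2a1*, 0.11 for *Ldha* and -0.20 for *Bnip3*. Of 10 genes of transforming growth factor beta, a classical inducer of the pathway, 0 were called, with a median of 0.46, and *Tgfbr1*, *Tgfbr2* and *Tgfbi* had 0.35, 0.56 and 0.38. Before adjustment, 4 of these 10 had p under 0.05 in edgeR in the higher direction (11.8% of all tested genes) and 0 in the lower. Without vehicle 1 and 3, the medians were 0.85 for elastic fibre genes with *Mfap2* alone called, 0.54 for fibrillar collagens with the same 2 chains called, 0.023 for hypoxia-inducible genes and 0.13 for the transforming growth factor beta list, with 0 called in the last 2.

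Marker lists of cell types were read in the same libraries, beside a share of 1.17% of all tested genes called higher in edgeR. Fibroblast markers had 1 of 9 tested called higher, *Igfbp6*, with a log2 fold change of 0.97 and an adjusted p of 0.0472 in edgeR, and a summed level of 1873 to 4008 CPM with vehicle and 4184 to 5105 with HPβCD, and *Dcn* and *Lum* had log2 fold changes of 0.80 and 0.41. Mural cell markers had 1 of 10 called, *Pdgfrb* (1.18, adjusted p 0.0483), with sums of 497 to 712 and 797 to 1049 CPM, and *Rgs5* and *Vtn* had 0.34 and 0.35. Endothelium had 0 of 10 called, with sums of 616 to 824 and 774 to 1260 CPM and log2 fold changes of 0.66 for *Cdh5*, 0.55 for *Vwf* and 0.23 for *Cldn5*. Macrophage markers had 1 of 10 called, *Gpnmb* (1.38, adjusted p 0.0483), with sums of 5112 to 8727 and 12093 to 21502 CPM and a median log2 fold change of 0.80. *Gpnmb* and *Cd5l* gave most of those sums, with mean levels of 4145 and 1069 CPM with vehicle and 10779 and 2742 CPM with HPβCD. *Csf1r*, *Msr1* and *Mrc1*, named here after their values were seen, were the lowest of the list, with log2 fold changes of 0.13, 0.08 and -0.0081. Of the 10 macrophage markers, 9 had a log2 fold change above 0. In edgeR 6 had an unadjusted p under 0.05 in the higher direction (11.8% of all tested genes) and 0 in the lower. *Cd5l* and *Lgals3* had 1.36 and 1.19 without passing. Such a p in the higher direction was also found for 4 of 9 fibroblast, 2 of 10 mural cell and 5 of 10 endothelium markers. In the lower direction these lists had 0. Without vehicle 1 and 3, *Igfbp6* alone of these 4 lists was called, and the medians were 0.43 for fibroblast, 0.36 for mural cell, 0.47 for endothelium and 0.68 for macrophage markers.

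Marker lists of brain parenchyma and of B lymphocytes had medians below 0. Neuron markers had 0 of 8 tested called, with a median log2 fold change of -5.88 set by vehicle 1 and 3 (*Snap25* -6.48, *Camk2a* -6.39, *Thy1* -0.99). Oligodendrocyte markers had 0 of 8 called, with a median of -1.90 and sums of 1661 to 5253 CPM with vehicle and 378 to 2259 with HPβCD (*Mbp* -1.65, *Cldn11* 0.20). Astrocyte markers had 0 of 8 called, with a median of -1.57 and sums of 2313 to 9863 and 707 to 2696 CPM (*Slc1a2* -3.18, *Gfap* -1.15, *S100b* -0.82). B lymphocyte and plasma cell markers had 3 of 8 called lower, *Cd79a*, *Cd79b* and *Jchain*, beside 114 of all 14736 tested genes. Their sums were 1370 to 2906 and 253 to 543 CPM, and *Ms4a1* and *Xbp1* had -1.95 and -0.28. Without vehicle 1 and 3 the medians were -0.058 for neuron, -1.69 for oligodendrocyte, -1.02 for astrocyte and -1.85 for B lymphocyte and plasma cell markers, with *Cd79a* alone called. No listed marker was at 0 in all libraries, and the part of these lists in the members' differences was not tested.

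The genes whose profile over the 8 libraries was most like each member were sought in 9533 genes averaging 10 CPM or more, by the root mean square difference of centred log2 CPM. The 3 called members had *Slc11a1* (0.126) nearest to *Loxl1*, *Scpep1* (0.0686) nearest to *Pcolce* and *Naglu* (0.0740) nearest to *Plod1*, followed by *Gdpd5* (0.130), *Aebp1* (0.116) and *Slc43a2* (0.101). *Lox* was nearest to *Fstl1* (0.120) and *Kcnj15* (0.156), *Loxl2* to *Ctsk* (0.195) and *Adcy7* (0.196), and *Plod2* to *Adamts5* (0.115) and *Ticam2* (0.139). *Loxl3* was nearest to *Trim47* (0.0425) and *Capg* (0.0696), *P4ha1* to *Fkbp15* (0.0487) and *Lrrc8d* (0.0691), and *Serpinh1* to *Adcy4* (0.0525) and *Twist1* (0.0988). Each distance is in log2 units over 8 libraries that share the same animals, so it describes likeness in these samples only.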

How the data were processed

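Bulk RNA sequencing was done on infarcts of 8 aged mice, 4 per group, with 1 library per animal. The authors deposited raw counts per gene for each animal, without normalization. Per the paper's methods and the submitters' processing notes, stranded libraries were made from polyadenylated RNA, base calls were converted with bcl2fastq 2.19, reads were trimmed with Trimmomatic 0.32, aligned to GRCm38 with STAR 2.5.2b and counted with HTSeq. The HTSeq version, its strand option and the annotation release are not given in the sources used here. Counts follow the annotation, so overlapping genes and reads from elsewhere in a gene's exons enter its value.

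Lines for reads assigned to no gene (26.6% to 36.6% of each library) were left out of totals and tests. Totals over genes ran from 16616909 to 32933164. Symbols were matched for 45143 of 46078 identifiers, and the 935 without one held 0.0484% of counts. All pairs of libraries differed by more than sampling noise (lowest chi-square per degree of freedom 18.9). The labels give no sequencing batch.

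Groups were taken from the labels. HPβCD and vehicle were compared with edgeR 4.0.16 (R 4.3.3), with TMM scaling, filterByExpr, quasi-likelihood tests and Benjamini-Hochberg adjustment over 14736 genes at 0.05. CPM are scaled by TMM and RPKM divide by merged exon length (GENCODE M21, GRCm38), and profiles use log2 CPM with a prior count of 2. An exact permutation test, two-sided over 70 assignments, was used for family shares. Promoters are RefSeq sequences on GRCm38.p6. DESeq2 1.42.0, limma 3.58.1, other scalings and filters, a replicate block and leaving out libraries served as alternatives. The edgeR script was tested on simulated data.

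The members and the gene lists were chosen with earlier results of these data known. All 10 members are named, and of each other list the 3 tested genes with the highest RPKM plus every gene called, except 1 gene that is not reported here. *P4ha3* and *Plod3* are named as part of a family and *Pdgfra* as a reference gene. *Csf1r*, *Msr1* and *Mrc1* were named after their values were seen. Members' nearest profiles were limited to 2 genes of at least 10 CPM outside the member list.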

Additional observations from a re-analysis of the deposited data

Results flagged for a closer look

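Values of 4 animals were searched in 58 groups for an animal whose gap to its nearest neighbour takes up most of the group's range, which chance gives in about 1 in 20 groups, or 2.9 here. The search found 2. The log2 CPM of *Loxl3* in HPβCD 4 was 3.68, below the other HPβCD animals at 4.16 to 4.24. The log2 ratio of *Pcolce* to the fibrillar collagens in vehicle 3 was -2.68, above the other vehicle animals at -4.27 to -4.15. Vehicle 3 is also the library with the most neuron transcripts, 8947 summed CPM, and the part of that tissue in the ratio was not tested.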

How the results depend on the processing

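The log2 fold changes of the 9 tested members stayed above 0 under all 16 alternatives. The number of genes called depended strongly on the method: edgeR with TMM scaling called 287 of 14736 genes and 3 members, DESeq2 2899 genes and 6 members, limma-voom with quality weights 3253 and 6, library totals alone 11 and 0, and a filter of at least 10 CPM in 4 libraries 487 genes with 4 members. Leaving out each animal in turn gave 0 to 629 genes and 0 to 4 members (0 genes, and so 0 members, without vehicle 1, vehicle 4, HPβCD 2 or HPβCD 3, where 2996, 4216, 2922 and 3565 genes had an unadjusted p under 0.05). RLE scaling and no filter on low counts each called 4 members, the fourth being *Serpinh1*. With the replicate number as a block (replicate block), edgeR called 9 genes and 0 members, and 7 members had an unadjusted p under 0.05. Whether the numbers pair the samples is not settled by these values. Deviations of equally numbered animals correlated at -0.257, 0.244, 0.329 and 0.0975, and the animals numbered 2 and 3 correlated best with their own number. The cause of these differences was not tested.

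The number of members without overlap between groups was 5 with library totals and 6 to 7 with an animal left out. The share over all tested genes is not given for these settings, and groups separate more easily with an animal left out. The count of members below vehicle in the ratio to collagen was 0 with *Dcn*, *Lum* and *Pdgfra* as reference, in place of 5. The share of all genes below vehicle was 84.4% against the collagens and is not given for the other reference. Small share differences changed sign: *Loxl2*, -0.38 percentage points, ranged from -1.47 to 0.225 with an animal left out (above 0 without HPβCD 1 or 2), and *Loxl4*, -0.032, from -0.0968 to 0.0295 (above 0 without vehicle 1 or 3). Without both vehicle animals, *Loxl3* (-0.99) became 0.566, *Loxl4* 0.120 and *Plod3* (-2.84) 2.153. Settings for the hydroxylase shares, and the gene lists without both vehicle animals, were chosen after seeing the data. The *Plod1* share gave exact permutation p = 0.0571 when any 1 HPβCD animal was left out, and *P4ha1* gave 0.0286 without vehicle 3. Depth limits *Loxl4*, with at most 12 reads.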
